A study of Homo sapiens with 4 samples.

Results

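The mRNAs of the RAB small GTPases were examined for antibody enrichment of N7-methylguanosine (m7G), the methylated guanine of the mRNA cap, which has also been mapped inside mRNA. Members were taken by name: a symbol made of RAB, a number and at most a letter or the ending AL counted as a RAB GTPase, and other symbols that begin with RAB and a digit were kept apart as partners. By this rule 21 of the 4326 peaks in IP replicate 1 and 21 of the 4862 in IP replicate 2 lay on RAB GTPase mRNAs. They named 19 genes, of 64 protein-coding RAB GTPase genes in RefSeq. Over all protein-coding genes, 4340 of 20056 had a peak in either replicate. A further 3 peaks in replicate 1 and 4 in replicate 2 lay on 4 partner genes, of 10 in RefSeq. RAB5IF, listed under an older name, was not counted among the 4.

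The cells were U2OS, an established human osteosarcoma line from a commercial cell repository, without treatment. Poly(A) RNA was pulled down with an antibody to m7G (IP), and 2 libraries each of IP and of input RNA were sequenced. The values are the authors' own peak tables, with a row for each peak that gives its p-value and its fold of IP over input RNA, and each IP replicate has a table of its own. The tables hold no read counts, so the depth behind a peak is unknown. Whether the replicates came from separate cultures is not stated in the labels, so their spread may be technical. Of the osteoblast and mesenchymal markers, 8 of 12 had overlapping peaks in the replicates, including COL1A1, COL5A1, COL6A1, SPARC and VIM, and RUNX2 and ALPL had no peak. Haematopoietic markers had 0 of 8, hepatocyte markers 0 of 6, epithelial markers 2 of 8 (CLDN4 and KRT18) and neuronal markers 2 of 8 (NEFL and SLC17A7). SERPINA1, a hepatocyte marker, and TUBB3, a neuronal one, had a peak in 1 replicate. Over all protein-coding genes the share with overlapping peaks was 10.5%, so the counts of 0 in lists this short do not set those cell types apart.

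RAB proteins are molecular switches of membrane traffic. Bound to GTP they recruit effectors such as tethers and motor adaptors to a given membrane, exchange factors (GEFs) load them with GTP, and GTPase-activating proteins (GAPs) turn them off. A prenyl tail anchors them in the membrane, and the inactive form returns through the cytosol. Different RAB proteins mark different compartments, from the endoplasmic reticulum (ER) and Golgi to early, recycling and late endosomes.

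Bases around gene starts are shown first for 6 RAB genes with a peak across a start or beginning within 42 nt of it. The cap lies at the mRNA 5′ end, and whether these peaks reflect the cap or m7G inside the mRNA was not tested. RAB12 and RAB1A had peaks as near to their starts, and the sequence table used here has no entry for them. Each line below gives bases from RefSeq (GRCh38.p14, the genome build of the peak tables being GRCh38), 5′ to 3′ on the strand of the gene. For RAB31, RAB32, RAB10, RAB35 and RAB5C these are the 30 bases before the start in the RefSeq promoter table and the first 30 bases from it. For RAB5A they are 30 bases that begin 20 nt into the gene. Capitals mark bases inside a peak of both replicates for RAB31, RAB32 and RAB5A, of replicate 1 alone for RAB10 and RAB35, and of replicate 2 alone for RAB5C.

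RAB32 (chr6:146543803-146543862, plus strand): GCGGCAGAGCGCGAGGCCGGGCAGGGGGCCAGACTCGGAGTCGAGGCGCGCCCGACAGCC
RAB31 (chr18:9708271-9708330, plus strand): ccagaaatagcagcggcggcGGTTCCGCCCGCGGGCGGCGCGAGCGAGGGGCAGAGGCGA
RAB5A (chr3:19947117-19947146, plus strand): gtggcggcggggccggcaccggGCAGCGGA
RAB10 (chr2:26034054-26034113, plus strand): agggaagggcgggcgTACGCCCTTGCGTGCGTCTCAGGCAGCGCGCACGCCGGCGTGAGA
RAB35 (chr12:120116724-120116783, minus strand): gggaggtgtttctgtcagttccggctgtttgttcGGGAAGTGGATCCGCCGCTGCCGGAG
RAB5C (chr17:42154960-42155019, minus strand): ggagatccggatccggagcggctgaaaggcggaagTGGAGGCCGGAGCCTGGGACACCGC

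The RAB32 peak covered all 60 bases shown in both replicates, so it ran across the annotated start and upstream of it. The RAB31 peak also ran across its annotated start, over 40 of the 60 bases in replicate 1 and all 60 in replicate 2. The RAB35 and RAB5C peaks began 4 and 5 nt inside the gene and held 26 and 25 of the bases shown. The RAB10 start shown is the one in the RefSeq promoter table, which lies inside the annotated gene span, and the replicate 1 peak began 15 nt before it. GC content ran from 61.7% in the RAB35 bases to 86.7% in the 30 RAB5A bases.

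A shared peak, meaning the best match between the replicates on the same strand, with an overlap of 1 bp or more, was present on 14 of the 64 RAB GTPase genes (21.9%). Among all 20056 protein-coding genes the share was 10.5%. Of the 19 RAB genes with a peak in either replicate, 14 (73.7%) had a shared one, against 48.4% of the 4340 protein-coding genes with a peak in either. The tables hold no expression levels, so an mRNA that is scarce and an mRNA that is not enriched cannot be told apart. The other 5 genes had a peak in a single replicate: RAB29 and RAB34 in replicate 1, and RAB15, RAB20 and RAB33B in replicate 2. No peak was listed for 45 genes, among them RAB7A and RAB11A, which mark late and recycling endosomes.

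By compartment, shared peaks lay on 5 of 10 early endosome genes (RAB5A, RAB5C, RAB21, RAB22A and RAB31) and on 4 of 10 genes of recycling and surface delivery (RAB10, RAB11B, RAB13 and RAB35). Late endosome, lysosome and related organelles had 3 of 11 (RAB12, RAB24 and RAB32), and ER and Golgi 2 of 14 (RAB1A and RAB1B). None of the 8 genes of regulated secretion, such as RAB3A and RAB27A, and none of the 11 remaining RAB genes had a peak in either replicate. Shared peaks lay on 21.9% of all RAB GTPase genes and 10.5% of protein-coding genes. A peak in either replicate lay on 19 of 64 RAB GTPase genes and on 4340 of 20056 protein-coding genes. The groups were drawn up for this report and are small, and differences between them were not tested. Close relatives differed: RAB5A and RAB5C had shared peaks and RAB5B had none listed, and RAB11B had 1 while RAB11A had none. A missing peak says only that none passed the authors' threshold.

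**Figure D1:**
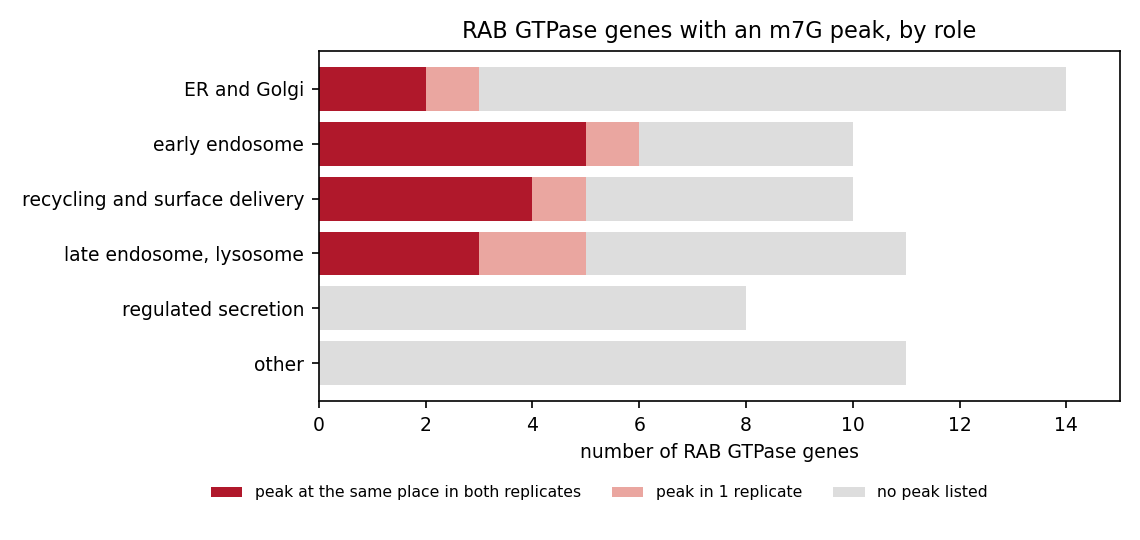
Number of RAB GTPase genes (x axis) in each compartment group (y axis), split into genes with a shared peak, with a peak in 1 replicate and with no peak listed. Early endosome genes had 5 of 10 shared and regulated secretion 0 of 8. The share was 21.9% over all RAB GTPase genes and 10.5% over protein-coding genes.

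Among early endosome RABs, RAB5A, which drives fusion of early endosomes, had the strongest enrichment, 19.3-fold in replicate 1 and 12-fold in replicate 2, at chr3:19947139-19947406. The peak had the same first and last base in both replicates and ran from 42 to 309 nt inside the annotated gene start. RAB21, which acts in integrin endocytosis, had 5.14-fold and 7.94-fold at chr12:71754983-71755222 and began 120 nt inside the gene in both replicates. RAB31, which acts between the trans-Golgi network and endosomes, had 4.11-fold and 4.62-fold at chr18:9708291-9708380, across its annotated start as shown above. RAB22A, a relative of RAB5A on early and recycling endosomes, had 3.65-fold and 3.40-fold at chr20:58309775-58309835, 60 nt inside the gene in both. All 4 of these peaks thus lay at the start side of the gene, and the replicates differed by a factor of 1.07 (RAB22A) to 1.61 (RAB5A). The RAB22A peak covered only 61 nt and was weak, with log10 p-values of -4.01 and -4.33.

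RAB5C, the third RAB5 protein, differed from RAB5A in where its peaks lay. Its shared peaks were both at the far end of the gene. The one at chr17:42125036-42125215, 146.5 nt from the annotated gene end, had 4.27-fold and 2.74-fold. The one at chr17:42125693-42125753, 759 nt from the end, had 1.36-fold and 1.35-fold, the lowest of the shared RAB folds. RAB5C also had a peak at its start in replicate 2 alone (2.17-fold), the one whose sequence is shown above, and a peak of 2 blocks in replicate 1 alone (1.86-fold). The annotated span of RAB5C-AS1, on the other strand, covers the start peak. RAB20, found on endosomes and phagosomes, had 11.2-fold in replicate 2, from 74 to 253 nt inside its start, and no peak in replicate 1.

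Among RABs of recycling and surface delivery, RAB35, which controls fast recycling to the plasma membrane, was highest, at 13.2-fold and 9.33-fold (chr12:120095485-120095635, 453.5 nt from the gene end). RAB13, which acts at tight junctions and the leading edge, had 4.61-fold and 5.85-fold at chr1:153981793-153982058, 275.5 nt from the gene end, with identical limits in both replicates. It was also the most significant RAB peak, with log10 p-values of -56.6 and -63.1. RAB11B, of the recycling endosome, had 3.39-fold and 2.91-fold at chr19:8403723-8404167 in replicate 1, where it covered 445 nt, and 238 nt in replicate 2. RAB10, which delivers glucose transporters to the surface, had 2.17-fold and 2-fold at chr2:26034396-26034724.

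Peaks at 3 of these 4 genes lay toward the gene end, and the RAB10 peak lay 1082 nt inside the annotated start. Measured from the RAB10 start shown above, its midpoints lay at 476 and 461.5 nt. RAB10 had another peak in replicate 1 alone (5.50-fold) across that start. RAB35 had 2 more in replicate 1, at the gene start (2.82-fold) and in the far part of the gene (2.31-fold), and 1 more in replicate 2 near the gene end (5.33-fold). RAB15, of recycling endosomes, had 1.82-fold in replicate 2 alone, in 3 blocks, where the span of CHURC1-FNTB on the other strand also covers it.

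Among RABs of late endosomes, lysosomes and related organelles, RAB12, which guides the transferrin receptor toward lysosomes, had 12.2-fold and 16.2-fold at chr18:8609475-8609831, from 38 to 394 nt inside its start in replicate 1 and from 8 to 364 nt in replicate 2. By the lower of both folds it was the highest of the RAB GTPases, ahead of RAB5A. RAB32, which acts in the making of melanosomes, had 11.6-fold and 11.7-fold at chr6:146543692-146543898, with the start of the gene inside the peak. Its log10 p-values of -4.86 and -4.43 were far weaker than those of RAB12 (-24 and -43). RAB24, linked to autophagy, had 3.70-fold and 4.34-fold at chr5:177303332-177303479, 240 nt inside its start. RAB29, which recruits the kinase LRRK2, had 6.82-fold in replicate 1 alone. RAB34, which acts in lysosome positioning and cilium formation, had 1.31-fold, also in replicate 1 alone.

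Among ER and Golgi RABs, RAB1B and RAB1A, which both act between the ER and the Golgi, had low folds, and RAB33B had a high one in a single replicate. RAB1B had 3.02-fold and 2.26-fold at chr11:66276219-66276397, 1191.5 nt from the gene end, and a further peak in replicate 2 alone (1.29-fold). The span of LOC107984340, on the other strand, covers these peaks. RAB1A had 1.68-fold and 1.82-fold, in 2 blocks. The first block covered 172 nt from 42 nt inside the gene start in replicate 1 and 201 nt from 13 nt in replicate 2, and the second covered 8 nt, ending 25307 nt from the start. The paralogs had shared peaks toward opposite ends of their genes. RAB33B, a Golgi RAB that binds the autophagy protein ATG16L1, had the highest fold of any RAB peak, 40-fold, in replicate 2 alone. This peak began 15611 nt inside the annotated gene start, and its midpoint lay 22547 nt from the gene end. The span of RAB33B-AS1, on the other strand, covers the peak.

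RefSeq lists 2 pseudogenes of RAB1A, 2 of RAB5C and 1 of RAB31. The labels do not say how reads that match both a gene and its copy were placed, so the values of these 3 genes are less certain.

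**Figure D2:**
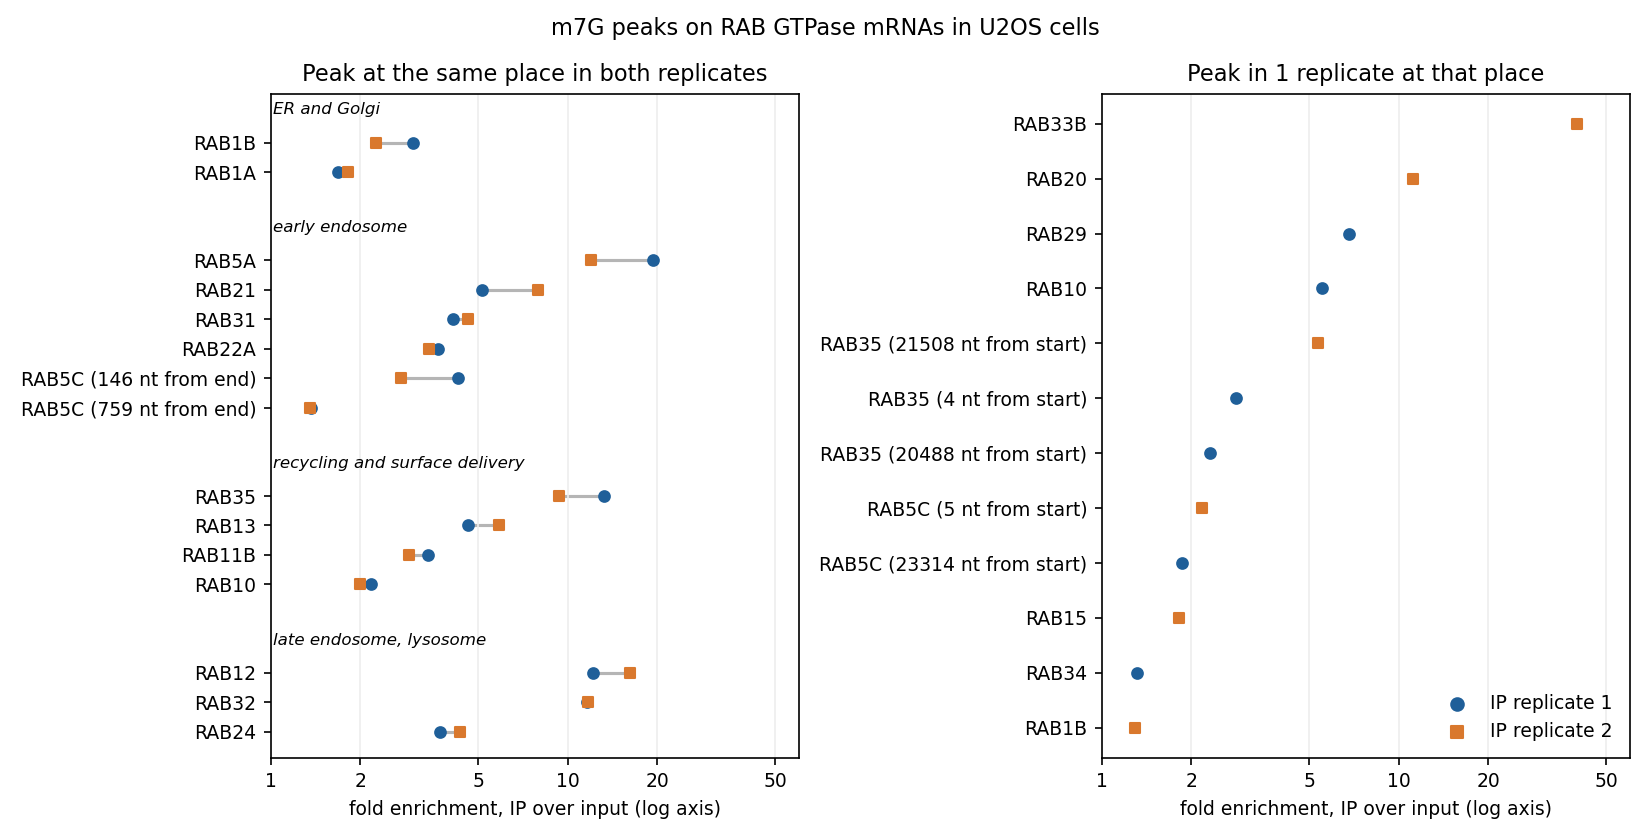
Fold enrichment of IP over input (x axis, log scale) for each RAB GTPase peak (y axis), with IP replicate 1 as circles and IP replicate 2 as squares. The left panel holds the 15 shared peaks by compartment, led by RAB12, RAB5A, RAB32 and RAB35, and the right panel the 12 peaks found in 1 replicate, led by RAB33B at 40-fold.

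In all there were 15 shared RAB peaks, and their folds lay in the middle of the range of the series. The median was 4.11 in replicate 1 and 4.34 in replicate 2, against 4.14 and 3.80 over all 2642 shared peaks. In 7 of the 15 (46.7%) both folds were 4 or higher, against 42.8% of all shared peaks, a share near the background. These 7 were RAB12, RAB5A, RAB32, RAB35, RAB21, RAB13 and RAB31. Ordered by the lower fold, many neighbours did not differ beyond the replicates: the pair of RAB5A values enclosed that of RAB12, and the pair of RAB35 values enclosed that of RAB32. Both RAB35 values lay above both of RAB21, whose pair overlapped that of RAB13.

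The replicates differed by a median of 0.23 on the log2 scale over the 15 peaks, a factor of 1.17, and by at most 0.69, at RAB5A. Over all shared peaks the median was 0.30, a factor of 1.23. Of the RAB peaks, 8 were higher in replicate 1 and 7 in replicate 2, so neither replicate was higher throughout. With 2 replicates and no counts, no test of a single peak was made.

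**Figure D3:**
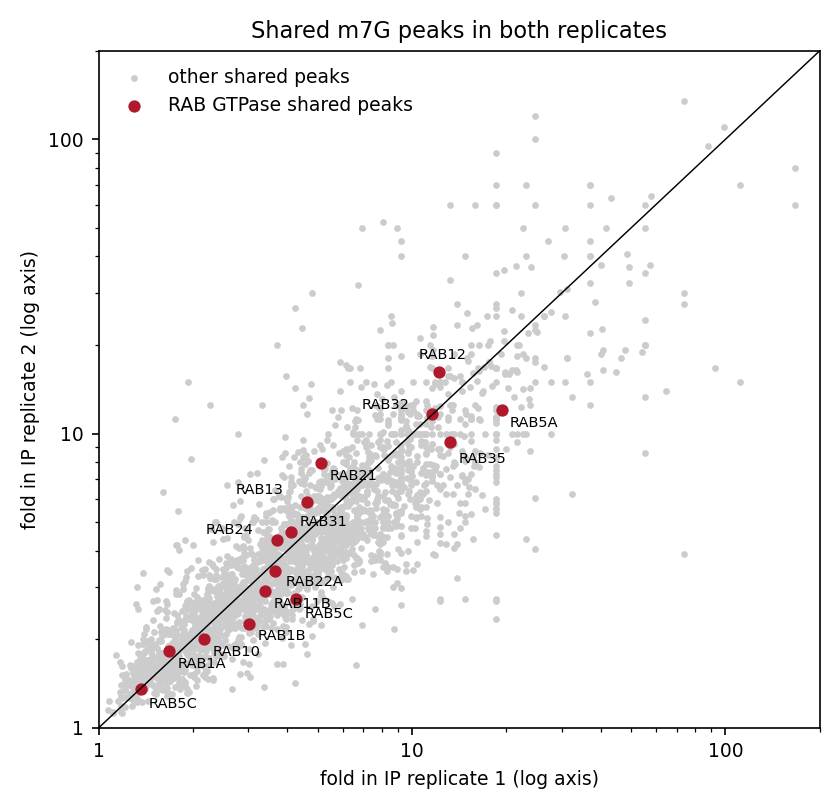
Fold in IP replicate 1 (x axis) against IP replicate 2 (y axis), both on log scales, for all 2642 shared peaks, with the 15 RAB GTPase peaks in red and the line of equal folds. The RAB peaks run from 1.36 and 1.35 (RAB5C) to 19.3 and 12 (RAB5A) and keep close to the line.

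Of the 21 RAB peaks in each replicate, 15 overlapped one in the other, against 62.6% of all replicate 1 peaks and 55.9% of all replicate 2 peaks. The 6 left over in each replicate were mostly weak. Their log10 p-values ran from -3.62 to -5.96 in replicate 1 and from -3.33 to -6.89 in replicate 2, and 1 of 6 in each table fell in its more significant 50%. Among the shared RAB peaks, 11 of 15 in replicate 1 and 12 of 15 in replicate 2 fell there.

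RAB12 and RAB5A were high in both fold and significance. For other RAB peaks the orders differed. RAB13, RAB11B and RAB10 were strong in p-value with modest folds, while RAB32, RAB20 and RAB33B had high folds with log10 p-values no stronger than -6.89. The RAB33B value of 40 is a whole multiple of 10, the most frequent of the folds from 10 upward in replicate 2, where 29.1% of the 509 peaks at or above 10 are such multiples, to within 0.05 (0.5 for folds from 100). In replicate 1 the corresponding value is 18.5, with 53.0% of the 253 peaks at or above it being multiples, and RAB5A, at 19.3, was the only RAB GTPase peak at or above it and not a multiple. What produces these values was not tested.

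**Figure D4:**
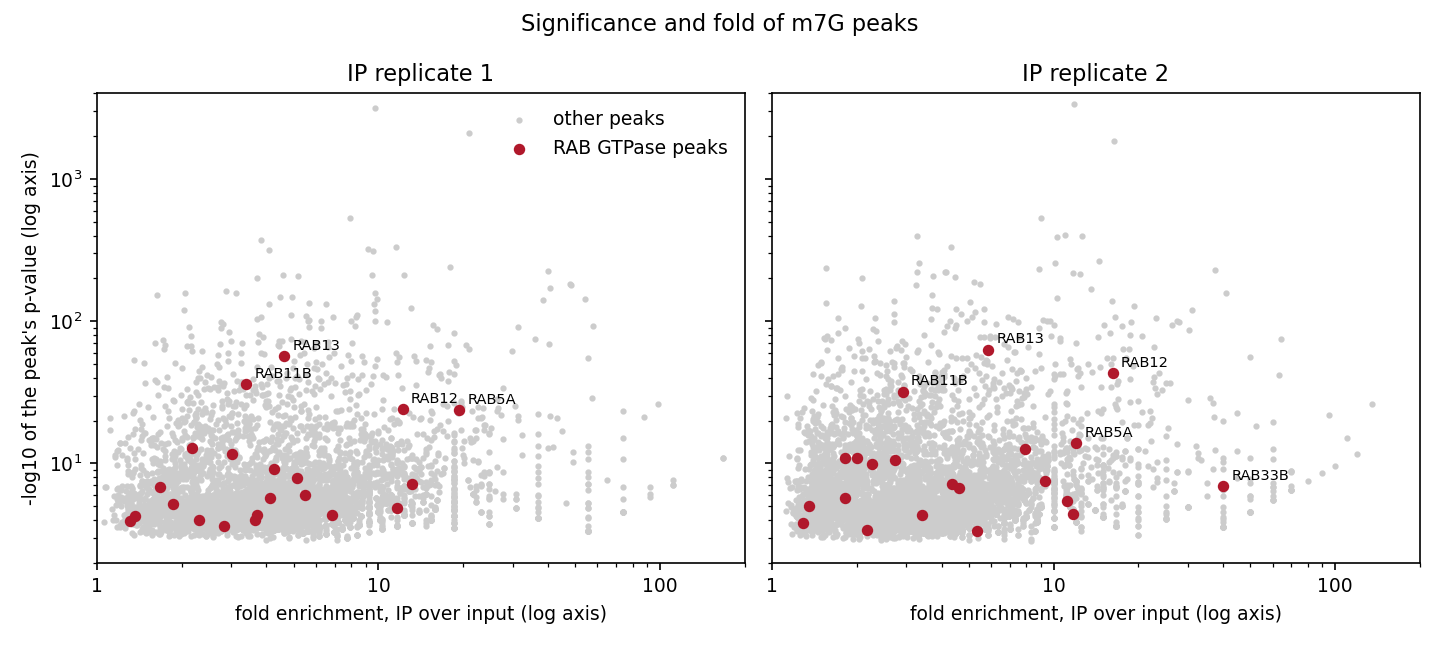
Negative log10 of the p-value of each peak (y axis, log scale) against its fold enrichment (x axis, log scale) in IP replicate 1 (left) and IP replicate 2 (right), with RAB GTPase peaks in red. RAB13 and RAB11B stand high at folds of 2.91 to 5.85, and RAB33B stands at 40-fold with a log10 p-value of -6.89.

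The shared RAB peaks lay toward either end of their genes. With an edge within 1500 nt of the annotated start there were 9, those of RAB32, RAB31, RAB12, RAB1A, RAB5A, RAB22A, RAB21, RAB24 and RAB10. With a midpoint within 1500 nt of the annotated end there were 6, those of RAB1B, RAB11B, RAB35, RAB13 and, both times, RAB5C. None of the 15 lay in neither class, against 33% of all shared peaks. With midpoints used at both ends, 1 of the 15 (RAB1A) lay in neither, against 43.6% of all shared peaks. Among peaks found in 1 replicate, those of RAB33B and RAB15 and the 2-block peak of RAB5C lay beyond 1500 nt from both ends. The distance of 1500 nt was chosen after the positions had been seen, and it takes in RAB10 at 1082 nt and RAB1B at 1191.5 nt, so the count is a description. Distances are genomic and include introns.

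With a narrower distance, midpoints within 200 nt of the start, there were 4 of 15 RAB peaks (RAB5A, RAB31, RAB22A and RAB32), against 15.9% of all shared peaks. RAB12, at 201 nt, fell just outside. With the middle base of the joined blocks in place of the midpoint of the span, RAB1A was added and the counts were 5 of 15 against 22.6%. With the nearest edge of any block, 7 of 15 (46.7%) reached within 200 nt, against 36.0% of all shared peaks. With midpoints within 500 nt the count was also 7 of 15, against 27.6%. At the other side, 5 of 15 midpoints were no more than 1000 nt from the annotated end, against 14.6% of all shared peaks.

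The 9 peaks at the start side had a median fold of 4.11 and 4.62, and the 6 at the end side 3.83 and 2.83. The ranges overlapped, from 1.68 to 19.3 at the start side and from 1.36 to 13.2 at the end side in replicate 1. Over all shared peaks the same classes had medians of 5.29 and 4.52 at the start side and 3.54 and 3.22 at the end side. At the start side 6 of the 9 peaks were higher in replicate 2, and at the end side 5 of the 6 were higher in replicate 1. Over all shared peaks, replicate 1 was higher in 780 and replicate 2 in 504 at the start side, and in 247 and 231 at the end side. In median length the RAB peaks covered 180 and 238 nt, against 181 and 206 nt over all shared peaks.

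**Figure D5:**
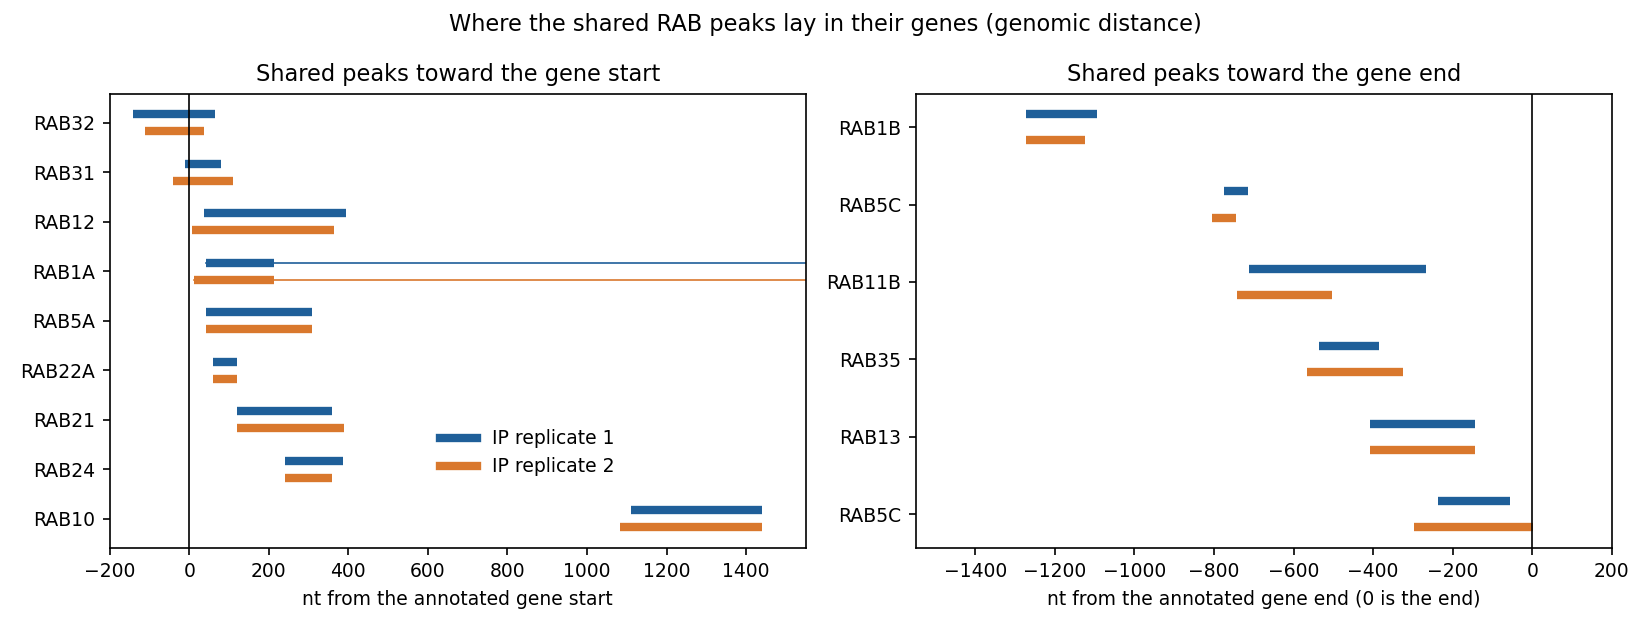
Extent of each shared RAB peak in nt from the annotated gene start (left) and from the annotated gene end (right), in IP replicate 1 (blue) and IP replicate 2 (orange). RAB32 and RAB31 cross the start, RAB5A and RAB22A have the same limits in both replicates, the thin line of RAB1A runs on to its second block, and the 6 peaks at right lie between 146.5 and 1191.5 nt from the end by midpoint.

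The sequence around the annotated starts was described for the genes that the RefSeq promoter table holds (250 nt before to 50 nt after each start), 12 of the 14 RAB genes with a shared peak. RAB12 and RAB1A had no entry. Median GC content of the 300 nt was 70.3% in these 12, 64.0% in 37 RAB genes with no peak and 62.7% over 15843 protein-coding genes. In the first 50 nt of the gene, the motif GANGAN was present on the strand of the gene in 1 of the 12, in 11 of the 37 (29.7%) and in 18.4% of all. On the other strand the shares were 1 of 12, 7 of 37 and 16.0%. N stands for any base and matches could overlap. These windows hold only the first 50 transcribed bases, so most peaks lie outside them.

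Partners that carry RAB in their name were reported apart. RAB11FIP2, an effector of RAB11 that links it to myosin V, had a higher shared peak than any RAB GTPase by the lower of both folds, 37-fold and 15-fold, at chr10:118046304-118046603, 338 nt inside its annotated start. The replicate difference of 1.30 on the log2 scale was larger than for any RAB GTPase, and the value of 37 is a whole multiple of 18.5. RAB3GAP1, the catalytic subunit of the RAB3 GAP, had 2.74-fold and 2.50-fold deep in its gene, 7430 nt from the end. RAB11FIP5, another RAB11 effector, had a peak near its start in each replicate, at 349 to 409 nt (5.14-fold) and at 199 to 289 nt (3.33-fold), which did not overlap. RAB11FIP1 had 6.19-fold in replicate 2 alone. RAB5IF, listed in the tables under its older name C20orf24, had 1.83-fold and 1.88-fold near its start. With RAB5IF counted, 3 of 10 partner genes (30%) had a shared peak, and without it 2. Over protein-coding genes the share was 10.5%.

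Further genes with RAB at the head of their names carried peaks. RABL6, a RAB-like protein, had shared peaks at its start (3.77-fold and 3.12-fold) and toward its end (4.14-fold and 4.93-fold). RABGEF1, the GEF of RAB5 known as rabex-5, had 6.17-fold and 3.20-fold, and RABAC1, which binds prenylated RABs, had 2.57-fold and 2.34-fold at its start. RABGAP1, a GAP, had 10-fold and RABEP2, a rabaptin, had 6.67-fold, each in replicate 2 alone. Their log10 p-values were weak, -3.59 and -3.79, and the RABGAP1 value is the recurring fold of replicate 2. The readthrough gene ISY1-RAB43 had 2.10-fold in replicate 2 alone, where the span of ISY1 also covers the peak.

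The wider machinery of the RAB cycle had shared peaks on 26 of 153 genes (17.0%), to be read against 10.5% of protein-coding genes, and on 26 of its 58 genes with a peak in either replicate (44.8%), near the 48.4% over all genes. Prenylation and recycling factors had 3 of 12, among them RABAC1, described above, and FDPS, an enzyme of isoprenoid synthesis (1.38-fold and 1.60-fold). Exchange factors had 6 of 44, led by DENND2A (37-fold and 70-fold), SBF1 (16.3-fold and 20-fold) and DENND4B (37-fold and 12.5-fold), all DENN-domain proteins. Whole multiples of 18.5 or 10 were held by DENND2A in both replicates, DENND4B in replicate 1 and SBF1 in replicate 2.

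GAPs had 10 of 38, led by TBC1D2B (9.80-fold and 8.09-fold), USP6NL, a GAP of RAB5 (12.3-fold and 7.27-fold), and TBC1D22A (6.73-fold and 32-fold). Their strongest peaks had midpoints 134, 55.5 and 72 nt from the annotated gene start. Effectors and tethers had 7 of 59, led by RAB11FIP2, PLEKHM2, which joins lysosomes to kinesin (12.6-fold and 6.67-fold), and RILPL2, which binds phosphorylated RABs (8.22-fold and 5.94-fold). The GAP share was 26.3%. The exchange factor share of 13.6% and the effector share of 11.9% were near the 10.5% over all protein-coding genes. Among genes with a peak in either replicate, 3 of 4 prenylation and recycling factors and 6 of 16 exchange factors had a shared one. For GAPs it was 10 of 19 and for effectors 7 of 19, beside 48.4% over all genes.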

How the data were processed

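Per the labels, U2OS poly(A) RNA and its m7G immunoprecipitate went into stranded libraries. The submitters' processing notes name STAR and GRCh38. For the peak caller, the name is not given in the sources. The deposited tables, 1 for each IP replicate, give per the file headers a p-value, log10 values of the p-value and of a false discovery rate (treated as a score), and a linear fold (ratio) of IP over input, whose scaling is not stated. The weakest false discovery rate was 0.0490 and 0.0479.

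Mutually best overlaps of at least 1 bp on the same strand made shared peaks. The search was first run on simulated peaks spaced far apart, so the choice among nearby peaks of a gene was not tested. Names were matched to RefSeq within 2000 nt of the peak, which placed 99.9% and 99.8% of peaks. Gene starts and ends are those of the RefSeq gene span, and coordinates are 1-based.

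No test was made. The members and gene lists were chosen with earlier results of these data known. Every RAB gene or RAB-named partner with a peak was named, and up to 3 genes of each pathway list by the lower of both folds, except results not reported here. RAB7A, RAB11A, RAB5B, RAB3A and RAB27A, with no peak, were named after the tables had been seen. Alternatives were other overlap rules, stricter peaks, each replicate left out, current symbols and other measures of position and fold. The scripts ran on matplotlib 3.10.9, pandas 2.3.3, numpy 2.4.6 and Python 3.11.15.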

Additional observations from a re-analysis of the deposited data

How the results depend on the processing

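The 14 RAB genes with a shared peak became 13 with 50% reciprocal overlap or midpoints within 100 nt (RAB11B was lost), 11 in the more significant 50% of each table (RAB22A, RAB24 and RAB32 were lost) and 7 with a fold of at least 4, where 7 peaks remained with a median fold of 11.1, as the filter itself selects high folds. With a single replicate, 17 genes (without replicate 1) and 16 (without replicate 2) had a peak. The 4 peaks near the gene start became 2 in the more significant 50%, 7 within 500 nt or by the nearest edge (46.7%, against 27.6% and 36.0% of all shared peaks), and 5 to 7 in a single replicate. The 2 partner genes, of 10, became 0 with 50% reciprocal overlap and in the more significant 50%. They became 1 with a fold of at least 4, 3 to 4 in a single replicate, and 3 with current symbols, which add RAB5IF. The 26 pathway genes became 17 with 50% reciprocal overlap, 12 in the more significant 50%, 16 with a fold of at least 4, and 43 to 45 in a single replicate. Other causes of these changes were not tested. Other counts kept within 1.5 times. The middle base of the joined blocks and the nearest of all annotated starts were chosen after seeing the data. Depth is unknown. No paired analysis was possible because the peak tables hold no input values, and the results are counts and medians that come from no test.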

Other observations

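The RAS family, which belongs to the same superfamily of small GTPases, was looked at for comparison, from a list written with earlier results of these data known. Of 19 RAS family genes, 5 (26.3%) had a shared peak and 10 had a peak in either replicate. Over all protein-coding genes, 4340 of 20056 had a peak in either replicate. Of the 10 RAS family genes with a peak in either, 5 had a shared one. The same share was 73.7% for RAB GTPases and 48.4% over protein-coding genes. RAP1A, which acts in cell adhesion, had 18.5-fold and 9.50-fold, RAP2A 7.12-fold and 9.52-fold, and HRAS 5.63-fold and 4.24-fold. The replicate 1 value of RAP1A is the recurring fold of that table. The share of 26.3% stands beside 21.9% for the RAB GTPases and 10.5% for protein-coding genes, and the differences were not tested.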
